A study of Mus musculus with 15 samples.

Results

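Retnla, Arg1, Chil3, Mrc1, Ccl8, Ccr2, Ly6c2 and Lyz2, a set of 8 genes of monocytes and alternatively activated macrophages, were described across mouse leukemias of the spleen. They were picked by symbol out of 39827 genes read from the count table, with their levels over the 5 groups already known, so those levels are a description and carry no test. RNA-seq was done on 15 libraries, 3 in each of 5 groups, from spleen leukemic T cells of irradiated C57BL/6J hosts. The hosts had received GFP+ Lineage- cKit+ Sca1+ bone marrow progenitors transduced with ΔE-NOTCH1, a shortened NOTCH1 active in the absence of ligand, so every group carries this oncogene. The groups were KO7 and KO3 (Bcat1 knock-out), WT6 (wild-type and given PBS like both knock-outs), the wild-type leukemia WT0 given the BCAT1 inhibitor ERG-245, and WT0 given PBS, for which the alignment names in the file name DMSO. Mice with ERG-245 got 3 intraperitoneal injections, each of 30 mg per kg, at intervals of 8 h. Bcat1 encodes the cytosolic branched-chain aminotransferase. KO7, KO3 and WT6 are 1 leukemia each by their numbers, and the labels do not tie the 3 libraries of a group to separate mice. The p-values thus cover spread among libraries that may be purely technical. The age of the animals is not given in the sources used here.

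Macrophages take different states according to the signals around them. In the alternatively activated state, interleukins 4 and 13 act through the receptor chain IL-4Rα and the transcription factor STAT6, and mouse macrophages then make Retnla, Arg1, Chil3 and more of the mannose receptor Mrc1. Classical monocytes leave the bone marrow through the chemokine receptor CCR2, carry Ly6C on their surface and make lysozyme M (Lyz2). In the spleen they stand beside red pulp macrophages, which clear aged red cells and also express Mrc1. None of these genes is a defining gene of T cells, although Ly6c2 is also expressed by some T cells and plasma cells, Chil3 and Lyz2 by neutrophils, and Arg1 by other myeloid cells. In a bulk sample, fewer cells of a type and less RNA per cell cannot be told apart.

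Total counts per library were 17441292 to 28902573. The 12 T cell genes that served to check the label were all detected in every group, with summed levels of 4013.3 to 7035.1 CPM per library. Bcat1 averaged 2.09 CPM in KO7, 6.95 in KO3, 35.2 in WT6, 13.3 in WT0 with ERG-245 and 17.8 in WT0 with PBS. The leading T cell receptor beta V segment differed in every group, and it was Trbv16 in WT0 with ERG-245 (49.9 ± 1.19% of these segments' counts, SD, n = 3) and Trbv17 in WT0 with PBS (39.7 ± 0.855%). The leukemic clone and the inhibitor therefore cannot be told apart in that comparison. Xist averaged 108.1 CPM in KO7, 212.2 in KO3, 322.5 in WT6 and 4372.9 in WT0 with PBS. The Y-linked Ddx3y averaged 68.0 CPM in KO7, 69.4 in KO3, 88.1 in WT6 and 0.0 in WT0 with PBS. WT0 with PBS thus differs in sex-linked genes from WT6 and from both knock-outs. The part of sex in comparisons with WT0, also over leukemias, was not tested. Variation beyond counting noise, as fitted by edgeR, was 2.18% among libraries of a group, which may be purely technical. It was 41.9% among leukemias sharing a genotype. Levels are given as CPM, fragment counts relative to library totals after TMM scaling.

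The start-site regions of members that moved together and of one that did not are shown, since Retnla and Ccl8 had a Pearson r of 0.97 over the 15 libraries and Retnla and Mrc1 an r of 0.04 (log2 CPM, description only, libraries of a group share a leukemia). Each sequence runs 5′ to 3′ on the gene's strand from 250 bases before to 50 after the RefSeq start in GRCm38.p6. Retnla lies at chr16:48842359-48842658 (plus strand), Ccl8 at chr11:82114935-82115234 (plus strand) and Mrc1 at chr2:14229164-14229463 (plus strand). Capitals mark matches, on either strand, to TTC and GAA 4 bases apart (the spacing bound by STAT6), TTGCNNAA (C/EBP) or GAGGAA (PU.1).
Retnla: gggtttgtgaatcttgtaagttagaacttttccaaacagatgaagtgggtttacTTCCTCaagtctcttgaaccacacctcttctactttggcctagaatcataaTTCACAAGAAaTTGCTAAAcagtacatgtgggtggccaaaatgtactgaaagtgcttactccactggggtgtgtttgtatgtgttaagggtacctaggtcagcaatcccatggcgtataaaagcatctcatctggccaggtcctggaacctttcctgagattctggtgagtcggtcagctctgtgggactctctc
Ccl8: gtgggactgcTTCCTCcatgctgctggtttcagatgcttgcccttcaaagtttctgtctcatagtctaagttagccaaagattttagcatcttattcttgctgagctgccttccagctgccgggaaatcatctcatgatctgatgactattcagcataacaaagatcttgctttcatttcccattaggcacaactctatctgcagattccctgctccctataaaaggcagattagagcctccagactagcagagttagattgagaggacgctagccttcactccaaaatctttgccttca
Mrc1: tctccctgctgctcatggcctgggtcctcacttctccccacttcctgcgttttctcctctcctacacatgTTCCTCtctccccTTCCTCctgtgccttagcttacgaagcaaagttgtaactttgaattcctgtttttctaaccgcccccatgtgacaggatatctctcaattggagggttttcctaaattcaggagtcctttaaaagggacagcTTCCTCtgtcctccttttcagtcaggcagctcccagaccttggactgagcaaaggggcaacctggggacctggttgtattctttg

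Of the 8 members, 7 had a region in the RefSeq table; Arg1 had none and is named only. Retnla was the single member of the 7 with a match to the STAT6 motif, as TTCACAAGAA at positions -145 to -136 before the start, and the single one with a match to TTGCNNAA, as TTGCTAAA at positions -134 to -127. Both matches lie next to each other without overlap. Of all 32851 such regions, 6.95% held the STAT6 motif, 10.8% held TTGCNNAA and 28.3% held GAGGAA. Matches to GAGGAA stood in 4 of the 7 members, namely Retnla, Mrc1, Ccl8 and Ly6c2. These matches are letters in a window and not evidence of a bound factor.

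The 8 genes lie on 7 chromosomes, with Arg1 and Lyz2 both on chromosome 10, and all 8 passed the filter on low counts. Their counts ranged from 6 (Arg1) to 11518 (Lyz2) per library. Some share sequence with a neighbouring copy, which makes their counts less certain. Of the 50-base windows of GENCODE M21 transcripts, 26.9% of those of Chil3 also lay in another gene's transcript (mainly Chil4), 15.4% of those of Lyz2 (Lyz1), 14.4% of those of Ly6c2 (mainly Ly6c1) and 1.91% of those of Ccr2. Retnla, Arg1, Mrc1 and Ccl8 shared 0 such windows. Per kilobase of exon, Lyz2 was the most abundant member in WT6 at 393.3 CPM per kb, followed by Ccl8 at 254.7 and Retnla at 175.1, whereas in KO7 it was Mrc1 at 58.4 CPM per kb, followed by Lyz2 at 50.7.

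WT6 held the highest mean level of 6 of the 8 genes, KO3 that of Arg1 and KO7 that of Mrc1. WT0 with PBS held the lowest mean of 5. The spans were wide, from 4.94-fold between the highest and lowest group mean for Mrc1 to 202-fold for Retnla. Of the 32 pairs of groups that stand next to each other in a gene's order, 4 overlapped in their libraries.

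**Figure D1:**
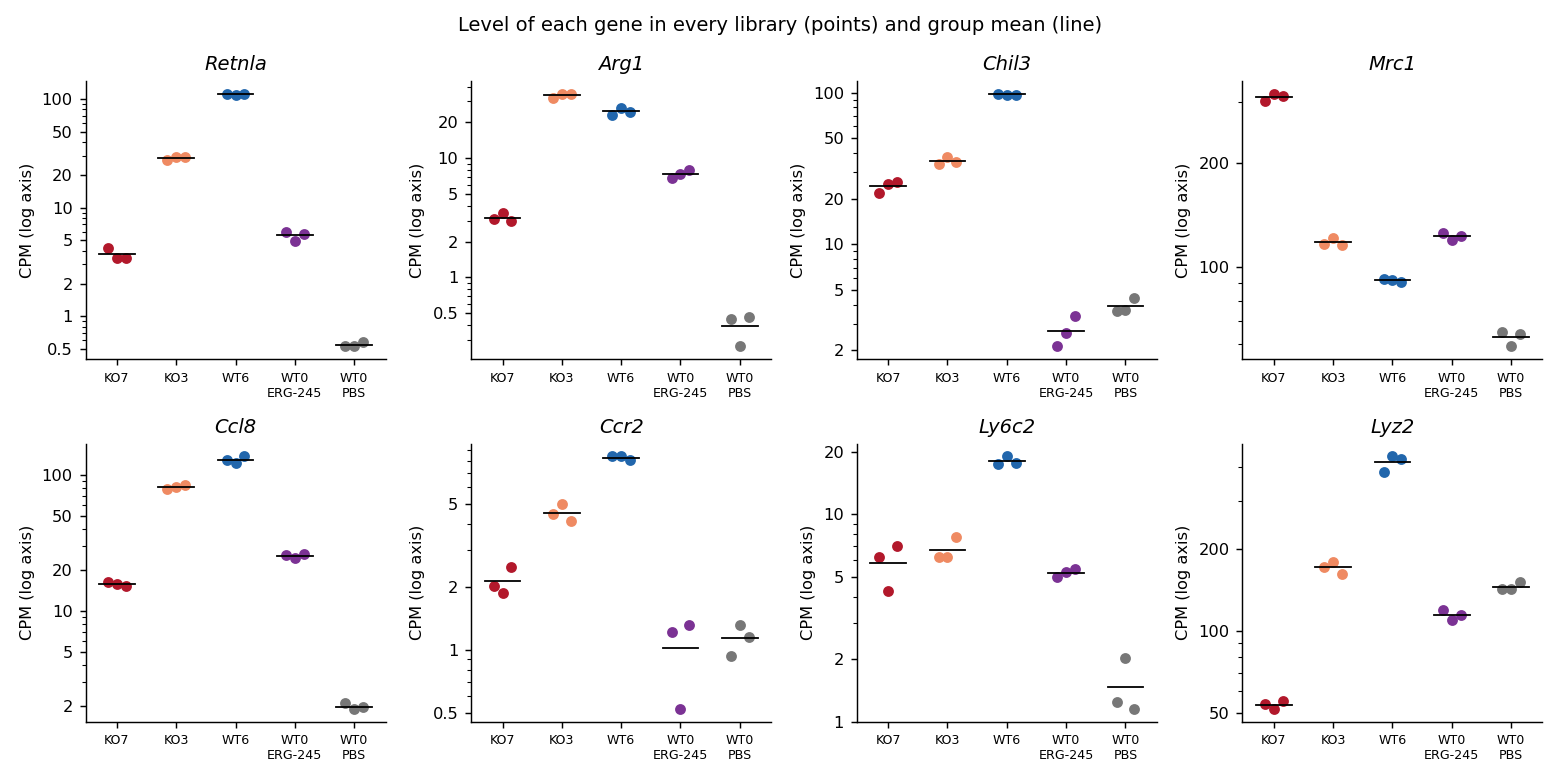
Level of each of the 8 genes (CPM, log axis) in every library (points) with the group mean (line), in KO7, KO3, WT6, WT0 with ERG-245 and WT0 with PBS. WT6 stands highest for 6 genes, KO3 for Arg1 (mean 34.0 CPM) and KO7 for Mrc1 (mean 310.4 CPM).

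Retnla, a secreted resistin-like protein induced by interleukin 4, varied most among the 8 members. Its level was 4.27, 3.46 and 3.41 CPM in KO7, 27.5, 29.3 and 29.2 CPM in KO3, 111.2, 108.1 and 111.6 CPM in WT6, 5.99, 4.9 and 5.73 CPM in WT0 with ERG-245, and 0.533, 0.529 and 0.577 CPM in WT0 with PBS. No 2 groups overlapped. WT6 was highest, KO3 next at 26% of WT6, and WT0 with PBS lowest, under 1 CPM. The fitted log2 difference was -4.88 (SE 0.069) for KO7 over WT6, -1.94 (SE 0.045) for KO3 over WT6, 7.65 (SE 0.095) for WT6 over WT0 with PBS, and 3.33 (SE 0.193) for ERG-245 over PBS in WT0. The PBS libraries of WT0 held 34 Retnla counts in all. The file starts the gene's exons at chr16:48842521-48844462, upstream of the RefSeq start used for the sequence above.

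Arg1, the arginase that turns arginine into ornithine and urea, had another order. Its level was 3.12, 3.46 and 2.96 CPM in KO7, 32.3, 34.9 and 34.8 CPM in KO3, 23.2, 26.4 and 24.6 CPM in WT6, 6.83, 7.45 and 8.06 CPM in WT0 with ERG-245, and 0.444, 0.264 and 0.462 CPM in WT0 with PBS. All 3 KO3 libraries lay above and all 3 KO7 libraries below those of WT6. The log2 difference was -2.96 (SE 0.099) for KO7 over WT6, 0.46 (SE 0.06) for KO3 over WT6, 5.99 (SE 0.147) for WT6 over WT0 with PBS and 4.26 (SE 0.201) for ERG-245 over PBS. The PBS libraries held 24 Arg1 counts in all.

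Chil3, a chitinase-like protein secreted by macrophages and found in neutrophil granules, stood at 21.9, 25.1 and 25.9 CPM in KO7, 33.8, 37.5 and 34.9 CPM in KO3, 98.6, 96.3 and 97.3 CPM in WT6, 2.12, 2.61 and 3.35 CPM in WT0 with ERG-245, and 3.64, 3.7 and 4.39 CPM in WT0 with PBS. Both WT0 groups were low, and the ERG-245 libraries lay below the PBS libraries without overlap. Unlike Retnla and Arg1, Chil3 was thus not higher with ERG-245 (log2 -0.52, SE 0.154). Its log2 difference was -2.01 (SE 0.051) for KO7 over WT6, -1.46 (SE 0.047) for KO3 over WT6 and 4.65 (SE 0.071) for WT6 over WT0 with PBS. Neutrophil markers moved alongside: the 17 genes of that list summed to 156.9 to 163.8 CPM in KO7, 208.7 to 213.5 in KO3, 388.1 to 414.6 in WT6, 20.4 to 21.0 in WT0 with ERG-245 and 87.5 to 89.5 in WT0 with PBS. Their order over the groups was the same as that of Chil3, with Ly6g at 0 in WT0 with ERG-245, and their part in the level of Chil3 was not tested.

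Mrc1, the mannose receptor that takes up glycoproteins, was the 1 member higher in KO7 than in WT6. It stood at 301.9, 317.3 and 312.1 CPM in KO7, 116.8, 121.8 and 116.0 CPM in KO3, 92.9, 92.2 and 90.7 CPM in WT6, 125.9, 120.1 and 123.4 CPM in WT0 with ERG-245, and 65.1, 59.2 and 64.2 CPM in WT0 with PBS. KO7 lay far above all other groups, and KO3 and WT0 with ERG-245 overlapped. The log2 difference was 1.75 (SE 0.029) for KO7 over WT6, 0.36 (SE 0.032) for KO3 over WT6, 0.55 (SE 0.035) for WT6 over WT0 with PBS and 0.97 (SE 0.035) for ERG-245 over PBS. Red pulp macrophage genes were also highest in KO7 and lowest in WT0 with PBS, although the groups between stood in another order, with a sum over 15 genes of 4283 to 4319.3 CPM in KO7, 1606.2 to 1619.8 in KO3, 1842.4 to 1882 in WT6, 1825.4 to 1843.5 in WT0 with ERG-245 and 1352.3 to 1369.8 in WT0 with PBS. None of the 15 was at 0 in any group, and their part in the level of Mrc1 was not tested.

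Of the chemokine pair, Ccl8 is a ligand that attracts monocytes and, in mice, T helper cells through CCR8. It stood at 16.4, 15.8 and 15.3 CPM in KO7, 78.7, 82.2 and 84.2 CPM in KO3, 130.2, 122.7 and 137.5 CPM in WT6, 25.8, 24.4 and 26.4 CPM in WT0 with ERG-245, and 2.09, 1.9 and 1.96 CPM in WT0 with PBS. The order of the groups was that of Retnla, with no overlap. The log2 difference was -3.04 (SE 0.05) for KO7 over WT6, -0.67 (SE 0.036) for KO3 over WT6, 6.03 (SE 0.072) for WT6 over WT0 with PBS and 3.68 (SE 0.102) for ERG-245 over PBS.

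Ccr2, the receptor that brings monocytes out of the marrow, was the least abundant member per kilobase in 4 of the 5 groups. It stood at 2.01, 1.87 and 2.5 CPM in KO7, 4.44, 5.0 and 4.15 CPM in KO3, 8.42, 8.42 and 8.07 CPM in WT6, 1.22, 0.521 and 1.32 CPM in WT0 with ERG-245, and 0.932, 1.32 and 1.15 CPM in WT0 with PBS. WT6 was highest and both WT0 groups overlapped near the bottom. The ERG-245 over PBS log2 difference of -0.15 (SE 0.273) turned to 0.16 without the second ERG-245 library, which held the lowest value. For Ccr2 the log2 difference was -1.97 (SE 0.153) for KO7 over WT6, -0.88 (SE 0.127) for KO3 over WT6 and 2.87 (SE 0.17) for WT6 over WT0 with PBS.

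Of the monocyte products, Ly6c2, a small surface protein of classical monocytes, stood at 6.23, 4.26 and 7.05 CPM in KO7, 6.19, 6.21 and 7.75 CPM in KO3, 17.4, 19.0 and 17.6 CPM in WT6, 4.98, 5.26 and 5.42 CPM in WT0 with ERG-245, and 1.24, 2.03 and 1.15 CPM in WT0 with PBS. WT6 was high, WT0 with PBS was low, and KO7 overlapped both KO3 and WT0 with ERG-245. The log2 difference was -1.62 (SE 0.105) for KO7 over WT6, -1.42 (SE 0.099) for KO3 over WT6, 3.58 (SE 0.136) for WT6 over WT0 with PBS and 1.80 (SE 0.18) for ERG-245 over PBS. The sum of 10 plasma cell genes stood highest and lowest in the same groups. It was 4532.3 to 4608.2 CPM in KO7, 3326.2 to 3384.5 in KO3 and 9312.5 to 9680.4 in WT6. In WT0 it was 3895.2 to 3970.8 CPM with ERG-245 and 1465.6 to 1488.1 with PBS. Igkc alone averaged 5791.3 CPM in WT6. Ighm was highest in KO7 (2269.8 CPM, 1298.4 in WT6). Sdc1 was highest in KO3 (128.8 CPM) and lowest in KO7 (53.6 CPM). The other genes of the list were highest in WT6 and lowest in WT0 with PBS. None of the 10 genes was at 0, and their part in the level of Ly6c2 was not tested. The near copy Ly6c1, which endothelium also expresses, had another order, at 31.7 CPM in KO7, 15.0 in KO3, 8.68 in WT6, 22.6 in WT0 with ERG-245 and 11.1 in WT0 with PBS.

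Lyz2, the lysozyme of monocytes, macrophages and neutrophils, stood at 53.9, 51.6 and 55.2 CPM in KO7, 171.6, 179.5 and 161.9 CPM in KO3, 383.2, 437.1 and 426.8 CPM in WT6, 118.9, 109.8 and 113.9 CPM in WT0 with ERG-245, and 143.0, 141.9 and 151.5 CPM in WT0 with PBS. KO7 was lowest here, below both WT0 groups, although it was highest for Mrc1. The neutrophil genes, which were lowest in WT0 with ERG-245, had another order, and their part in the level of Lyz2 was not tested. The log2 difference was -2.95 (SE 0.038) for KO7 over WT6, -1.28 (SE 0.031) for KO3 over WT6, 1.52 (SE 0.032) for WT6 over WT0 with PBS and -0.35 (SE 0.037) for ERG-245 over PBS. The other lysozyme gene, Lyz1, was far lower, at 0.235 CPM in KO7, 0.84 in KO3, 4.48 in WT6, 1.2 in WT0 with ERG-245 and 1.98 in WT0 with PBS.

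Over the 4 comparisons, counts of members at least 2-fold apart at an adjusted p under 0.05 describe the choice of genes and support nothing. KO7 had 1 member higher and 7 lower than WT6, where 9.29% of all 15948 genes tested were higher and 8.17% lower. KO3 had 0 higher and 4 lower than WT6 (4.04% and 7.46% of all genes). WT6 had 7 higher and 0 lower than WT0 with PBS (9.15% and 9.74%). WT0 with ERG-245 had 4 higher and 0 lower than WT0 with PBS (5.67% and 6.05%). KO7 and KO3 share the WT6 libraries as their control, and WT6 and ERG-245 share the PBS libraries of WT0. The WT6 libraries are also the ones set against WT0 with PBS. The members' median log2 difference was -2.48 for KO7 over WT6, -1.08 for KO3 over WT6, 4.11 for WT6 over WT0 with PBS and 1.38 for ERG-245 over PBS.

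**Figure D2:**
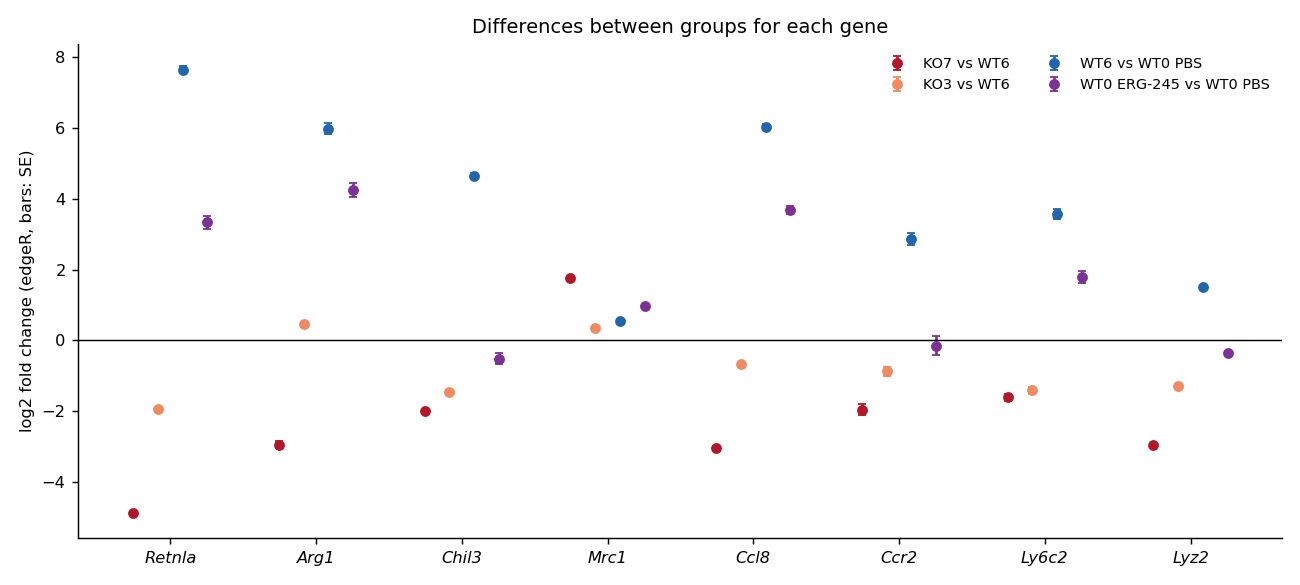
Fitted log2 fold change (edgeR, bars show the SE) of each of the 8 genes for KO7 over WT6, KO3 over WT6, WT6 over WT0 with PBS and ERG-245 over PBS in WT0. Mrc1 is the 1 gene above 0 in KO7 over WT6 (1.75), and Retnla, Arg1 and Ccl8 are those above 2 with ERG-245 (3.33, 4.26 and 3.68).

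In KO7, the mean levels of 6 of the 8 members, all but Mrc1 and Lyz2, were below WT6 and above WT0 with PBS, and in KO3 so were those of 6, all but Mrc1 and Arg1. Against WT0 with PBS, Retnla was 6.81-fold higher in KO7 and 52.6-fold higher in KO3, Arg1 8.15-fold and 87.2-fold, Ccl8 7.98-fold and 41.3-fold, and Chil3 6.21-fold and 9.05-fold, as ratios of group means. All of these but Arg1 in KO3 were lower than in WT6. Mrc1 was higher in both knock-outs than in either PBS-treated wild type. Lyz2 was lower in KO7 (53.6 ± 1.83 CPM) than in both WT6 (415.7 ± 28.6 CPM) and WT0 with PBS (145.5 ± 5.28 CPM), while KO3 (171.0 ± 8.81 CPM) lay between these wild types. Over leukemias, with counts summed per leukemia and KO7 and KO3 set against WT6 and WT0 with PBS, the log2 difference of Mrc1 was 1.49 (SE 0.504), that of Lyz2 -1.30 (SE 0.727) and that of Retnla -1.75 (SE 2.042). For Arg1 it was 0.59 (SE 1.815), for Ccl8 -0.41 (SE 1.687) and for Chil3 -0.75 (SE 1.288). For Ccr2 it was -0.49 (SE 1.004) and for Ly6c2 -0.61 (SE 1.081). For every member but Mrc1 and Lyz2, the error was thus larger than the difference.

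The RNA level of general macrophage genes differed between groups as well. The sum of 6 genes shared by most macrophages (among them Csf1r, Cd68 and Adgre1) was 806.6 to 822.1 CPM in KO7, 322.0 to 325.7 in KO3, 398.6 to 426.0 in WT6, 387.1 to 391.6 in WT0 with ERG-245 and 312.0 to 325.0 in WT0 with PBS. KO7 was highest and none of the 6 was at 0 in any group. Dendritic cell genes (13 genes) summed to 257.5 to 261.9 CPM in KO7, 304.7 to 309.8 in KO3, 437.7 to 460.7 in WT6, 196.7 to 200.9 in WT0 with ERG-245 and 242.6 to 244.8 in WT0 with PBS, where Siglech and Cd209a were at 0 in KO7 and Cd209a in WT0 with ERG-245. Eosinophil, basophil and mast cell genes (17 genes) summed to 159.5 to 162.9 CPM in KO7, 108.5 to 111.1 in KO3, 198.3 to 207.1 in WT6, 82.8 to 87.5 in WT0 with ERG-245 and 52.5 to 57.0 in WT0 with PBS, with Ear6 at 0 in KO7, Ear1 at 0 in KO3, and Epx, Ear1 and Ear6 at 0 in WT0 with ERG-245. Ccr3 (72.9 CPM) and Ear2 (51.3 CPM) made up most of the KO7 sum and, like Kit, were higher in KO7 than in KO3. Mcpt8 (1.95 CPM in KO7, 3.67 in KO3), Prss34 (1.42, 2.77), Cpa3 (1.54, 4.23) and Fcer1a (0.991, 2.3) had the opposite order. The part of these cells in the members' levels was not tested.

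**Figure D3:**
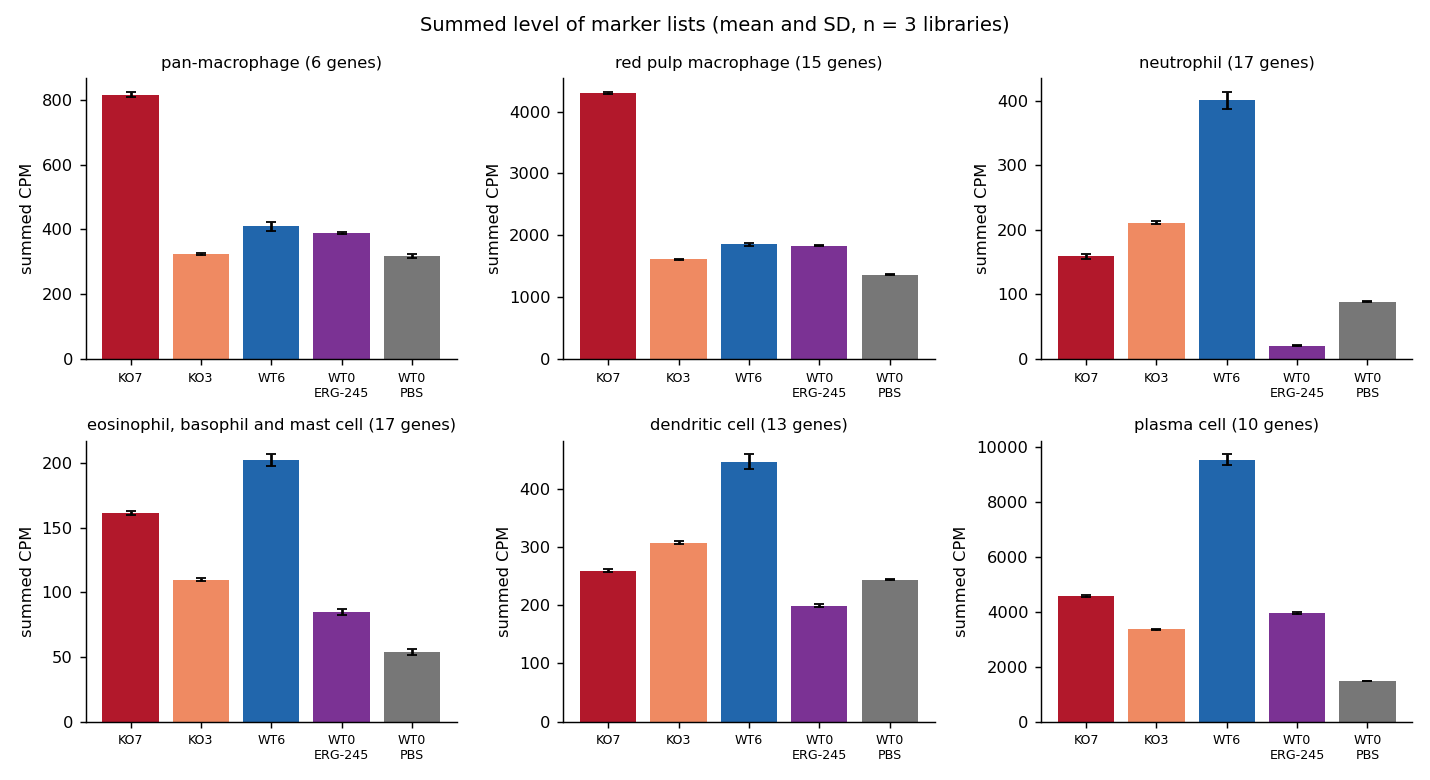
Summed CPM (mean, bars show the SD, n = 3 libraries) of 6 marker lists in KO7, KO3, WT6, WT0 with ERG-245 and WT0 with PBS. The sums of pan-macrophage and red pulp macrophage genes are highest in KO7, while those of neutrophil, dendritic and plasma cell genes are highest in WT6.

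The members also differed between groups relative to those 6 macrophage genes. Retnla equalled 0.455 ± 0.0569% of their sum in KO7, 8.84 ± 0.346% in KO3, 26.9 ± 0.628% in WT6, 1.42 ± 0.138% in WT0 with ERG-245 and 0.172 ± 0.0116% in WT0 with PBS (SD, n = 3 each). Arg1 equalled 0.389 ± 0.0287% in KO7, 10.5 ± 0.478% in KO3, 6.04 ± 0.498% in WT6, 1.91 ± 0.156% in WT0 with ERG-245 and 0.123 ± 0.0363% in WT0 with PBS. The order of the groups for both genes was that of their CPM. Mrc1 was much closer between groups on this scale, at 38.0 ± 1.08% in KO7, 36.4 ± 0.835% in KO3, 22.4 ± 1.0% in WT6, 31.6 ± 0.578% in WT0 with ERG-245 and 19.8 ± 1.34% in WT0 with PBS. Lyz2 equalled 6.56 ± 0.284% in KO7 and 101.4 ± 7.71% in WT6. Csf1r alone averaged 439.1 CPM in KO7 and 217.5 CPM in WT6, where the sums of the 6 genes averaged 816.5 and 410.2 CPM. The part of macrophage content in the members' levels was not tested.

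**Figure D4:**
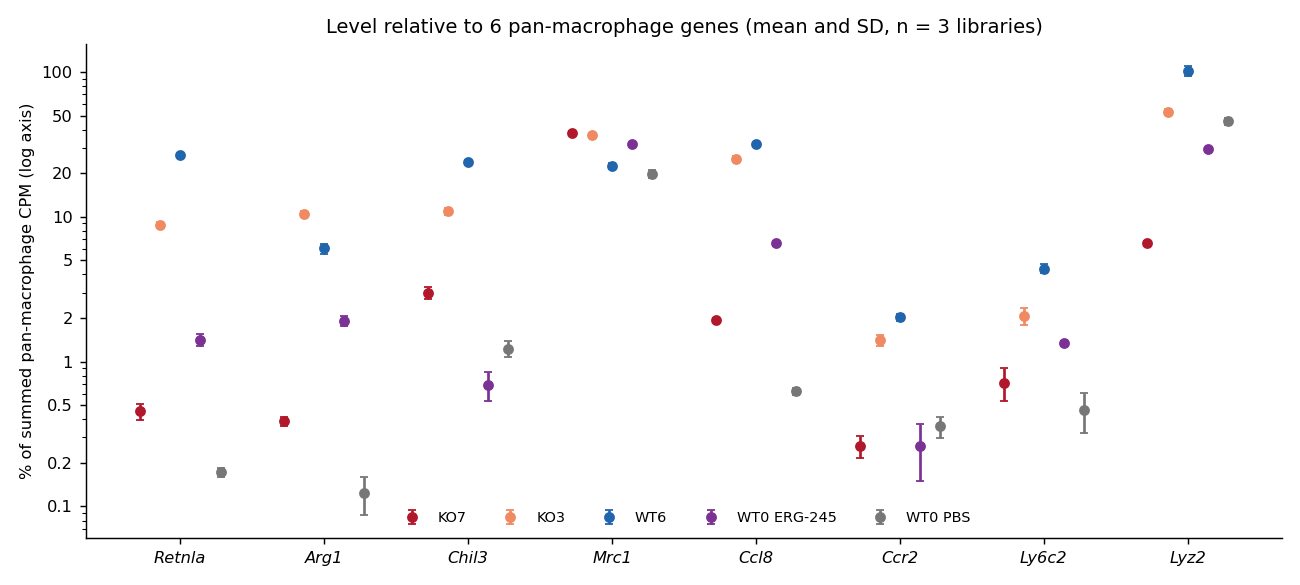
Level of each of the 8 genes as a percentage of the summed CPM of 6 pan-macrophage genes (log axis, mean, bars show the SD, n = 3 libraries) in the 5 groups. Retnla spans 0.172% in WT0 with PBS to 26.9% in WT6, whereas Mrc1 stays between 19.8% and 38.0%.

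Other genes of alternative activation, a list of 36 of which 35 were read and 31 tested, moved mostly the same way as Retnla between the wild types. Like the lists that follow, it was chosen with earlier results of these data known. Its counts and p-values are therefore not independent support for the members' pattern. In WT6, 20 of the 31 were higher and 0 lower than in WT0 with PBS (median log2 1.43, against a median of 0.005 over all genes, edgeR, adjusted p under 0.05 and at least 2-fold). Of all genes, 9.15% were higher and 9.74% lower. Ccl24, a chemokine for eosinophils, rose to 76.2 ± 4.66 CPM in WT6, against 6.87 ± 0.381 CPM in WT0 with PBS (log2 3.47, SE 0.062, edgeR adjusted p = 2.36e-59). Atp6v0d2, a subunit of the vacuolar proton pump in macrophages and osteoclasts, rose to 28.5 ± 1.09 CPM in WT6, against 1.7 ± 0.271 CPM (log2 4.08, edgeR adjusted p = 3.32e-48). The galactose-binding lectin Mgl2 rose to 6.34 ± 0.186 CPM, against 0.54 ± 0.202 CPM (log2 3.57, edgeR adjusted p = 1.05e-24). Rnase2a, a ribonuclease of the eosinophil-associated family, stood at 7.48 CPM in WT6 and 0.0148 CPM in WT0 with PBS, where it had 1 count in all. Sums of markers of other cells moved with this list. Neutrophil genes summed to 400.6 CPM in WT6 and 88.7 CPM in WT0 with PBS. Eosinophil, basophil and mast cell genes summed to 202.1 and 54.1 CPM. Dendritic cell genes summed to 446.0 and 244.0 CPM, of which H2-Ab1 alone made up 262.8 and 81.2 CPM. Among the other dendritic cell genes, Itgax was higher in WT6 (39.7 and 15.6 CPM). Zbtb46 (9.17 and 15.9 CPM) and Tcf4 (41.4 and 63.6 CPM) were lower. Itgax, Batf3 and Cd209a stand in both the dendritic cell and the alternative activation list. The part of these other cells in the list's change was not tested.

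Relative to WT6, more of these genes fell than rose in both knock-outs. In KO7, 12 of 31 fell and 3 rose (median log2 -0.81, all genes -0.026), where 8.17% of all genes fell and 9.29% rose. The share that rose was near that of all genes. The 3 were Cd163, at 90.1 ± 5.47 CPM in KO7, against 16.4 ± 0.698 CPM in WT6 (log2 2.46), Stab1 (1.28) and Flt1 (1.01). Atp6v0d2 fell to 3.42 ± 0.264 CPM in KO7, against 28.5 ± 1.09 CPM in WT6 (log2 -3.06, edgeR adjusted p = 4.82e-43), and the lipoxygenase Alox15 to 0.536 ± 0.22 CPM, against 3.57 ± 0.513 CPM (edgeR adjusted p = 6.45e-15). In KO3, 7 of 31 fell and 0 rose (median log2 -0.61, all genes -0.019), where 7.46% of all genes fell and 4.04% rose. The chemokine Ccl22 stood at 2.5 ± 0.522 CPM in KO3, against 6.69 ± 0.391 CPM in WT6 (log2 -1.42, edgeR adjusted p = 9.47e-13). Ch25h, a cholesterol hydroxylase, fell to 0.809 ± 0.0191 CPM in KO3, against 2.63 ± 0.207 CPM (edgeR adjusted p = 1.08e-08).

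With ERG-245, 6 of the 31 rose and 2 fell relative to PBS in WT0 (median log2 0.18, all genes -0.001), where 5.67% of all genes rose and 6.05% fell. The share that fell was near that of all genes. Ccl24 rose to 29.3 ± 1.2 CPM with ERG-245, against 6.87 ± 0.381 CPM with PBS (log2 2.09, edgeR adjusted p = 2.19e-38). The scavenger receptor Msr1 rose to 21.4 ± 1.91 CPM, against 5.05 ± 0.055 CPM (log2 2.08, edgeR adjusted p = 8.44e-34), and the lectin Clec10a to 2.16 ± 0.433 CPM, against 0.279 ± 0.0945 CPM (edgeR adjusted p = 6.04e-13). The genes lower with ERG-245 were Alox15 (log2 -1.39) and Ccl22 (log2 -1.11), named because their count is small. Without the first or the third ERG-245 library, 1 of these passed.

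Other monocyte genes, 32 of which all were tested, did not share one direction. In KO7, 9 rose and 4 fell relative to WT6 (median log2 0.59), where 9.29% of all genes rose and 8.17% fell. Those that rose included Ace, angiotensin-converting enzyme, at 144.7 ± 2.11 CPM in KO7, against 21.0 ± 0.955 CPM in WT6 (log2 2.79, edgeR adjusted p = 1.5e-63), and Cd300e, a surface receptor of patrolling monocytes, at 10.9 ± 1.5 CPM, against 1.69 ± 0.0752 CPM (edgeR adjusted p = 1.69e-28). Those that fell included the fractalkine receptor Cx3cr1, at 1.02 ± 0.338 CPM in KO7, against 7.28 ± 0.341 CPM (log2 -2.81, edgeR adjusted p = 1.68e-23), and Lyz1 (log2 -4.23). In KO3, Ace rose alone, to 123.7 ± 5.55 CPM, against 21.0 ± 0.955 CPM in WT6 (edgeR adjusted p = 2.12e-60), and 5 genes fell (median log2 -0.46), among them fibronectin, Fn1, to 35.5 ± 0.634 CPM, against 112.1 ± 1.84 CPM (log2 -1.66, edgeR adjusted p = 9.46e-50). Of all genes, 4.04% rose and 7.46% fell in KO3.

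Between the wild types, 4 monocyte genes rose and 2 fell in WT6 relative to WT0 with PBS (median log2 0.53), shares near the 9.15% and 9.74% of all genes, and 9 rose when no scaling factor was used. The integrin Itgam rose to 16.3 ± 1.03 CPM in WT6, against 5.79 ± 0.258 CPM (log2 1.49, edgeR adjusted p = 8.22e-25). With ERG-245, 3 rose and 2 fell (median log2 0.20), shares near the 5.67% and 6.05% of all genes, so the counts do not set the list apart. Among them were the Fc receptor Fcgr3 at 74.5 ± 0.082 CPM, against 29.5 ± 0.989 CPM with PBS (log2 1.34, edgeR adjusted p = 9.44e-41) and the nuclear receptor Nr4a1, which T cells also express, at 21.5 ± 1.37 CPM, against 47.2 ± 0.694 CPM (log2 -1.13, edgeR adjusted p = 1.25e-30).

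Genes of classical activation, which interferon gamma and bacterial products induce, had 21 of 28 members tested. In KO7, 7 rose and 4 fell relative to WT6 (median log2 0.20), with the formyl peptide receptor Fpr1 at 16.2 ± 0.666 CPM, against 2.6 ± 0.303 CPM (log2 2.63, edgeR adjusted p = 3.29e-33), and the costimulatory receptor Cd40 at 1.93 ± 0.295 CPM, against 6.62 ± 0.202 CPM (edgeR adjusted p = 2.22e-16). Of all genes, 9.29% rose and 8.17% fell in KO7. In KO3, 3 rose and 1 fell (median log2 -0.06), where 4.04% of all genes rose and 7.46% fell. Those that rose were the chemokines Ccl3 (log2 1.77) and Ccl4 (1.28) and the nitric oxide synthase Nos2 (1.10), and the cystine transporter Slc7a11 fell (log2 -1.18). A second gene fell too without the second KO3 library, for a count of 2.

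In WT6, 6 rose and 1 fell relative to WT0 with PBS (median log2 0.52), with the cytokine Tnf at 6.48 ± 0.33 CPM, against 1.98 ± 0.345 CPM (log2 1.70, edgeR adjusted p = 6.25e-17), while the scavenger receptor Marco fell to 6.59 ± 0.531 CPM, against 23.3 ± 0.421 CPM (log2 -1.83, edgeR adjusted p = 1.35e-33). The number that fell was 2 by DESeq2 and without the filter on low counts. Of all genes, 9.15% rose and 9.74% fell in WT6. With ERG-245, 4 rose and 2 fell (median log2 0.36), with the interferon-induced chemokine Cxcl9 at 25.5 ± 1.49 CPM, against 7.8 ± 1.17 CPM with PBS (log2 1.69, edgeR adjusted p = 3.33e-31), and Marco at 7.61 ± 0.0499 CPM, against 23.3 ± 0.421 CPM (log2 -1.62, edgeR adjusted p = 7.56e-29). Of all genes, 5.67% rose and 6.05% fell with ERG-245.

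Ligands, receptors and cytokines around the members formed a list of 29, of which 25 were tested. In WT6, 12 rose and 0 fell relative to WT0 with PBS (median log2 0.98), where 9.15% of all genes rose and 9.74% fell. The gene of interleukin 4 stood at 1.99 ± 0.2 CPM in WT6, against 0.283 ± 0.0455 CPM (log2 2.76, edgeR adjusted p = 1.27e-11), and the chemokine receptor Ccr1 at 9.35 ± 0.397 CPM, against 0.593 ± 0.37 CPM (log2 3.90, edgeR adjusted p = 4.26e-32). Il13 was too low to be tested between groups and had 0 counts in KO7 and in WT0 with PBS. The IL-4 receptor chain Il4ra stood at 45.5 CPM in KO7, 40.3 in KO3, 50.8 in WT6, 44.4 in WT0 with ERG-245 and 19.6 in WT0 with PBS. Stat6 stood at 139.2 CPM in KO7, 145.1 in KO3, 142.7 in WT6, 112.3 in WT0 with ERG-245 and 136.2 in WT0 with PBS.

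In KO7, 7 of these 25 fell and 3 rose relative to WT6 (median log2 -0.18), where 8.17% of all genes fell and 9.29% rose. Those that rose were Ccr3 (72.9 CPM in KO7, 19.9 in WT6), Il1rl1 (37.8 and 13.2 CPM) and Il10 (9.71 and 4.31 CPM). Interleukin 33, an alarm cytokine of stromal cells, fell to 1.94 ± 0.318 CPM, against 12.4 ± 0.887 CPM (log2 -2.66, edgeR adjusted p = 2.51e-29), and Il4 to 0.334 ± 0.161 CPM, against 1.99 ± 0.2 CPM (log2 -2.57, edgeR adjusted p = 2.05e-10). In KO3, 5 fell and 0 rose (median log2 -0.33), with Il33 at 6.01 ± 0.497 CPM, against 12.4 ± 0.887 CPM (edgeR adjusted p = 2.02e-14), and Il4 at 0.764 ± 0.183 CPM (edgeR adjusted p = 8.2e-06). Without the second KO3 library 3 fell. Of all genes, 7.46% fell and 4.04% rose in KO3.

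With ERG-245, 8 of the 25 rose and 0 fell (median log2 0.64), where 5.67% of all genes rose and 6.05% fell. Il13ra1, which pairs with IL-4Rα, rose to 9.17 ± 0.28 CPM, against 2.95 ± 0.347 CPM with PBS (log2 1.64, edgeR adjusted p = 1.99e-19), and the cytokine Il10 to 7.07 ± 0.779 CPM, against 2.21 ± 0.117 CPM (log2 1.67, edgeR adjusted p = 2.93e-17).

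**Figure D5:**
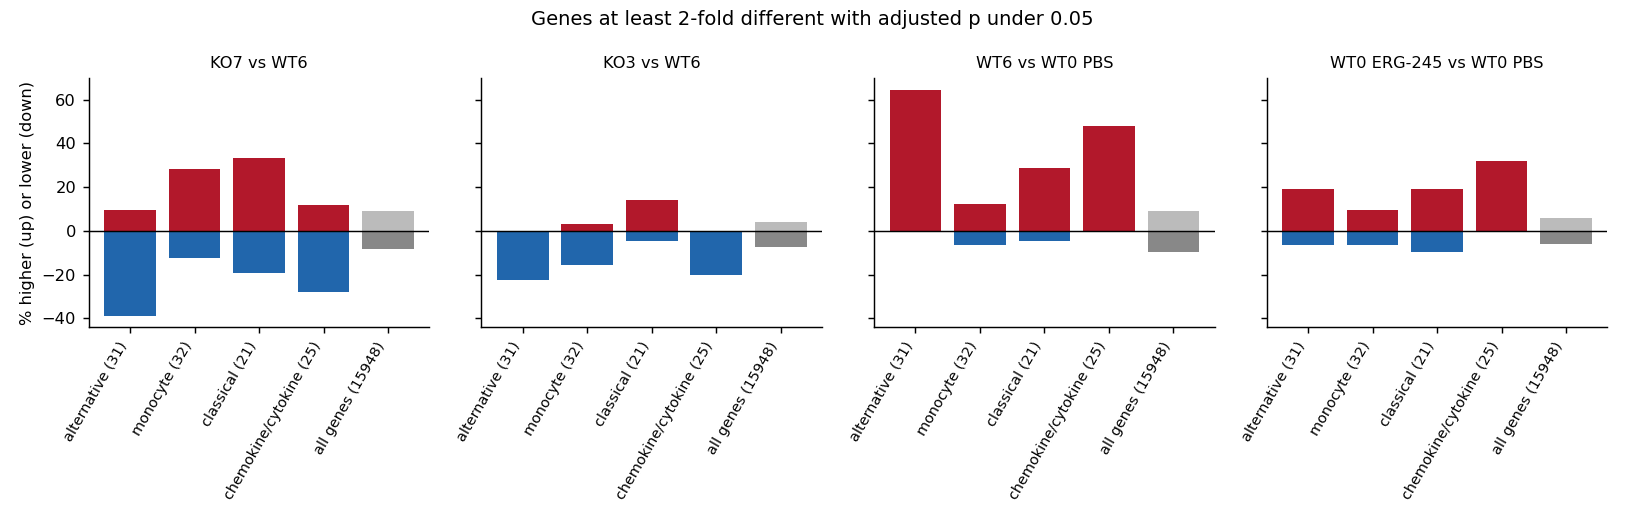
Percentage of tested genes at least 2-fold higher (upward bars) or lower (downward bars) at an edgeR adjusted p under 0.05, for 4 gene lists (number tested in brackets) and for all genes (grey), in 4 comparisons. In WT6 over WT0 with PBS, 20 of 31 alternative activation genes are higher and 0 lower, against 9.15% and 9.74% of all genes. The lists were chosen with earlier results of these data known.

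The chromosomal neighbours of Ccl8 were lower than Ccl8 in every group. Ccl12, a mouse ligand of CCR2, stood at 0.849 CPM in KO7, 3.39 in KO3, 5.97 in WT6, 1.51 in WT0 with ERG-245 and 0.697 in WT0 with PBS. The eotaxin Ccl11 fell to 0.29 ± 0.227 CPM in KO7, against 4.84 ± 0.611 CPM in WT6 (log2 -4.04, edgeR adjusted p = 5.46e-21). The neighbours of Ccr2 included Ccr3, which eosinophils carry and which stood at 72.9 CPM in KO7, 20.6 in KO3, 19.9 in WT6, 23.7 in WT0 with ERG-245 and 13.0 in WT0 with PBS, an order unlike that of Ccr2.

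Around Arg1, the other arginase, Arg2, stayed under 1 CPM in every group (0.289 CPM at most) and was too low to be tested between groups. The cationic amino acid transporter Slc7a2, which brings arginine into macrophages, rose in WT6 relative to WT0 with PBS (14.5 and 4.68 CPM, log2 1.62, edgeR adjusted p = 1.26e-23). Ass1, which makes the precursor of arginine, rose with ERG-245 to 36.8 CPM, against 13.5 CPM with PBS (log2 1.45, edgeR adjusted p = 9.67e-32). Odc1, which uses the ornithine that arginase yields and is abundant in dividing cells, stood at 562.5 CPM in KO7, 342.3 in KO3, 327.6 in WT6, 735.6 in WT0 with ERG-245 and 603.7 in WT0 with PBS.

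Among themselves, Retnla, Arg1, Chil3, Ccl8, Ccr2 and Ly6c2 had Pearson r of 0.65 to 0.98 over the 15 libraries (15 pairs, log2 CPM). Lyz2 had r of 0.45 to 0.65 with them, and Mrc1 r of -0.71 to 0.26 with the other 7. These values rest on 5 groups of 3 near-identical libraries and are given without a test. Among 10288 genes searched, each averaging 5 CPM or more, those most like Retnla were Serf2 (r = 0.988), Atp6v0d2 (0.988) and the inhibitory Fc receptor Fcgr2b (0.986). Those most like Arg1 were Ccl24 (0.987), the disulfide isomerase P4hb (0.976) and the neurofilament gene Nefh (0.974), and those most like Ccl8 were P4hb (0.998), Ccl24 (0.997) and the chloride channel gene Clic1 (0.978).

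Those most like Mrc1 were Mrap (r = 0.985), Ccr3 (0.985) and the complement gene C6 (0.981), which stood at 98.2 CPM in KO7, 31.4 in KO3, 26.0 in WT6, 40.3 in WT0 with ERG-245 and 21.9 in WT0 with PBS. Those most like Ly6c2 were Serp1 (0.985), the transcription factor Xbp1 of the plasma cell list (0.973) and Psph (0.972). For Chil3 they were Parvg, Trabd and Ppp2r5a (0.988 to 0.989), for Ccr2 Tspyl3, Cmtr2 and Pde3b (0.97 to 0.977), and for Lyz2 they included Lcp1 (0.981) and Mef2c (0.972). Serf2, the gene most like Retnla by r, changed far less in size, at 165.9 CPM in KO7, 190.5 in KO3, 205.9 in WT6, 164.5 in WT0 with ERG-245 and 147.4 in WT0 with PBS.

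Over leukemias, edgeR called 0 genes of the 4 lists and 0% of all 17226 genes, higher or lower. At an unadjusted p under 0.05 there were 6 of 32 monocyte genes, 0 of 32 alternative activation genes, 2 of 23 classical activation genes and 1 of 26 ligand and receptor genes, and 226 of all genes (1.31%). DESeq2 called 21 genes higher and 26 lower in knock-outs, of which Ace was the 1 in these lists (log2 2.00, SE 0.514, DESeq2 adjusted p = 0.0391). Each genotype had 2 leukemias in this comparison.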

How the data were processed

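Raw fragment counts per gene for 15 libraries were read from the authors' deposited table. They were made with featureCounts 2.0.1, per the file headers, from pairs mapped at both ends and not chimeric, with at least 25 bases of overlap and strand setting 2. Exons came from RefSeq on GRCm38.p6, and the command sets nothing for reads that map to several places. Per the submitters' processing notes, Trim Galore, STAR, Subread, DESeq2 and mm10 were also used, without settings. The labels name PBS for the WT0 control, whereas the alignment names of 3 libraries in the header hold DMSO. The deposited table also gives each gene's exon length, its other unit, used for levels per kilobase.

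Of 39836 lines, 9 were broken (3 genes) and left out, so 39827 genes were read, 39743 of them with a symbol. All value columns belonged to the series (0 others). The tools were edgeR 4.0.16 and, as an alternative, DESeq2 1.42.0, in R 4.3.3. Genes were kept by filterByExpr (15948), libraries were scaled with TMM (factors 0.945 to 1.04), and a single quasi-likelihood fit to 15 libraries had 10 residual degrees of freedom. A call needed a 2-fold difference or more with a p, adjusted by Benjamini-Hochberg over all genes, under 0.05. Counts summed per leukemia were fitted alike (17226 genes, 2 residual degrees of freedom). The procedure was tested on simulated data. Log2 CPM used a prior count of 2.

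The members and gene lists were chosen with earlier results of these data known. Named genes are the members, up to 4 called genes per list and comparison by largest fold change with a mean of at least 1 CPM, genes of the arginine pathway and the paralogs and chromosomal neighbours with at least 1 CPM in a group, and the 3 genes most like each member. A few genes that this rule names are not reported here. Ear11 had no matching symbol, and F13a1 stands in both the monocyte and the alternative activation list. Replicate numbers did not pair the libraries. Alternatives were other scalings, DESeq2, no filter, a replicate block and leaving out each library or leukemia. Sequences came from RefSeq (GRCm38.p6).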

Additional observations from a re-analysis of the deposited data

Results flagged for a closer look

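Arg1 moved in opposite directions in the knock-out leukemias relative to the same WT6 libraries. All 3 KO7 libraries lay below WT6 (log2 -2.96) and all 3 KO3 libraries above it (log2 0.46). The difference was not tested, since Arg1 was chosen on these levels.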

How the results depend on the processing

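Counts of list genes past the threshold were recomputed for 4 lists, both directions and 4 comparisons. With DESeq2 size factors, all 32 counts stayed within 1.5 times the value given, and likewise with the replicate block. The replicate block gave, for instance, 1860 called genes in all for ERG-245 over PBS (1870 without it), 2776 for KO7 over WT6 (2784), 1822 for KO3 over WT6 (1833) and 3004 for WT6 over WT0 with PBS (3013). Libraries with the same number had correlations of -0.0462 to 0.0321 between their deviations from the group means, so the numbers do not pair them. Without a scaling factor, monocyte genes higher in WT6 than in WT0 with PBS were 9 in place of 4. Classical activation genes lower in WT6 than in WT0 with PBS were 2 in place of 1 by DESeq2 and without the filter on low counts. Over leukemias, DESeq2 called 1 monocyte gene higher in knock-outs in place of 0. Leaving out each leukemia in turn, done with edgeR only, gave 0 for all 8 counts. With all leukemias edgeR had already called 0 genes, so these runs do not check the DESeq2 call. The cause of these shifts was not tested.

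Leaving out 1 library at a time gave 1 to 2 alternative activation genes lower with ERG-245, 1 to 2 classical activation genes lower in KO3 and 3 to 5 ligand and receptor genes lower in KO3. The members' log2 differences kept their sign under every alternative run on the 15 libraries except Ccr2 with ERG-245, which ranged from -0.386 to 0.161 when 1 library was left out (0.161 without the second ERG-245 library). Without a scaling factor, 2 of the 32 moved by more than the spread between libraries: Mrc1 was 1.69 in place of 1.75 for KO7 over WT6, and Retnla 7.72 in place of 7.65 for WT6 over WT0 with PBS. Arg1, Retnla and Ccr2 in WT0 with PBS rest on 24, 34 and 71 counts over 3 libraries, which limits their precision.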
